A study of Mus musculus with 8 samples.

Results

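The genes of the liver X receptors, their RXR partners and the receptors that work beside them in the liver were followed as a group of 10, picked by symbol among the 25010 genes of the expression table. They are Nr1h3 (LXRα), Nr1h2 (LXRβ), Rxra, Rxrb, Rxrg, Nr1h4 (FXR), Nr0b2 (SHP), Nr1i2 (PXR), Nr1i3 (CAR) and Ppara (PPARα). Polyadenylated RNA of the left liver lobe was sequenced in 2 WT and 2 LXRDKO mice, with 1 library per mouse. Mice of both genotypes were on the C57BL/6 background, 8 wk old and fasted for 4 to 6 h. LXRDKO mice carry whole-body deletions of both LXR genes, not limited to any cell type of the liver, and WT mice carried neither deletion. Values are normalized counts, that is, reads counted on a gene divided by a size factor of its library. The libraries held 55772659 and 72842744 reads on genes for WT and 63681131 and 56281367 for LXRDKO.

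Nuclear receptors are transcription factors that bind small lipophilic molecules. LXRs respond to oxysterols and bind DNA together with RXR, the partner that FXR, PXR, CAR and PPARα also need. In hepatocytes LXRs drive lipid synthesis and sterol export, FXR senses bile acids and induces the repressor SHP, PXR and CAR respond to foreign compounds, and PPARα promotes fatty acid oxidation in fasting.

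Both LXR genes fell to about the same share of their WT level in LXRDKO livers, while the 3 RXR genes, FXR, PXR and CAR did not pass the test. Nr0b2 and Ppara were lower in both LXRDKO livers, and whether they passed depended on the tool. The genotypes were compared with limma, its variance prior following the mean, on log2(normalized count + 1) for 15578 genes whose mean reached 10 normalized counts. Genes passed at an adjusted P value under 0.05 (Benjamini-Hochberg). Limma called 2 of the 10 genes, both down, against 0.321% of all genes tested. These 2 are the deleted genes Nr1h3 and Nr1h2, so the genotype set their direction, and limma called no other receptor of the 10. DESeq2 on reads recovered from the normalized counts called 4, all down, against 3.59% of the genes it gave an adjusted P value. They were the 2 deleted genes, Nr0b2 and Ppara. The 2 LXRDKO livers were both lower than the 2 WT livers for 5 of the 10 genes, against 23% of all genes tested, and both higher for 0, against 21.7%. The 5 were the same 4 genes and Rxrg. The median log2 fold change of the 10 genes was -0.35, and that of all genes tested was -0.0046. The counts and this median of the 10 include the deleted genes, which pull the median down. The remaining genes had log2 fold changes of -1.34 (Nr0b2), -0.58 (Ppara), -0.53 (Rxrg) and -0.16 (Rxra). Those of Nr1i2, Nr1h4, Rxrb and Nr1i3 ran from -0.003 to 0.05. For 30 other nuclear receptor genes tested, described further on, the median was -0.19. Both LXRDKO livers were lower than both WT livers for 12 of these 30 genes, and both higher for 4. A lean downward was therefore not particular to the 10 genes. With 2 livers against 2, the smallest P value of a two-sided exact permutation test is 0.333.

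**Figure D1:**
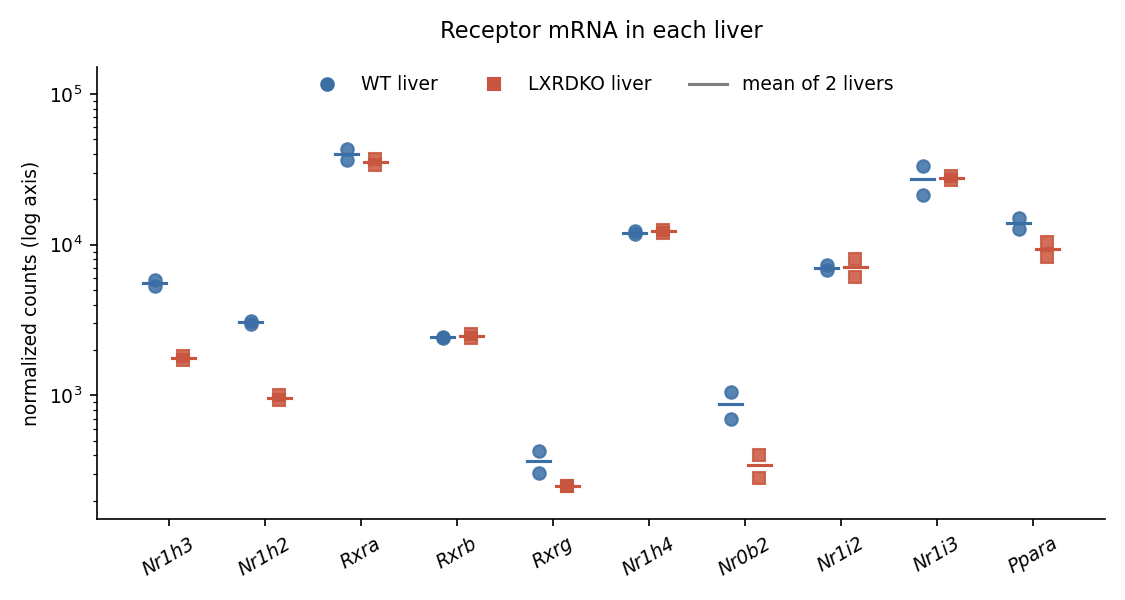
Normalized counts (log axis) of the 10 receptor genes in the 2 WT livers (circles) and the 2 LXRDKO livers (squares), with the mean of each genotype as a bar. Nr1h3, Nr1h2, Rxrg, Nr0b2 and Ppara show no overlap between the genotypes, and for the other 5 genes the symbols overlap.

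Nr1h3 encodes LXRα, the main LXR of hepatocytes, and lies at chr2:91184061-91202834 of GRCm38, on the minus strand. It stood at 5785 and 5322 normalized counts in WT livers, compared with 1712 and 1826 in LXRDKO livers. The LXRDKO livers kept 30.8% and 32.9% of the WT mean, and the groups were far apart compared with the spread inside each. On the log2 scale the difference was -1.65 (standard error 0.0952, 95% interval -1.89 to -1.41). Limma gave an adjusted P value of 0.0147 and DESeq2 one of 3.45e-28. By P value it was gene number 3 of all genes tested.

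Nr1h2 encodes LXRβ, which is expressed in most tissues, and lies at chr7:44549616-44553951, on the minus strand. It stood at 2987 and 3109.97 normalized counts in WT livers, compared with 925 and 1003 in LXRDKO livers. The remaining share was 30.4% and 32.9% of the WT mean, nearly that of Nr1h3. Its log2 fold change came to -1.66 (standard error 0.0984, 95% interval -1.90 to -1.42). The adjusted P value in limma was 0.0147 and in DESeq2 3.87e-26. Both calls were lost when either LXRDKO liver was left out, with adjusted limma P values from 0.0768 to 0.0953, and the fold changes then stayed between -1.72 and -1.60. They were also lost in limma without the trend (adjusted P = 0.212 in limma for both).

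Between 936 and 6270 reads lay behind each value of the pair. Since reads were summed over whole genes, the exons that gave the remaining reads are unknown, and the counts cannot tell a shortened transcript from an intact one. In bulk liver, fewer cells of a type and less RNA per cell cannot be told apart either. Kupffer cells, the resident macrophages of the liver, also express LXRα, and of 12 Kupffer cell markers 10 were lower and 2 higher. Limma called 4, all down (Clec4f, Cd5l, Marco and Cd163), against 0.321% of all genes tested. DESeq2 called 7, all down, against 3.59% of the genes it gave an adjusted P value. The general macrophage genes Csf1r, C1qa, C1qb and C1qc had overlapping values, with differences of 0.05, -0.19, 0.06 and -0.29 on the log2 scale. Adgre1, another such gene on the list, showed no overlap and differed by -0.79 on that scale. Normalized counts of Adgre1 were 500 and 628 for WT, against 430 and 242 for LXRDKO. Neither tool called Adgre1. The summed level of the 12 markers was 16589 to 18201 normalized counts in WT livers and 6553 to 11145 in LXRDKO livers, and Timd4 was at 0 in LXRDKO replicate 2. The part of these cells in the change of Nr1h3 was not tested.

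The pattern over the 4 livers was compared with that of every other gene tested, as the root mean square difference of log2 values after the WT mean was taken off. The gene nearest to Nr1h3 was Nr1h2, at 0.0641. Next came Epb41l3, at 0.084, and Gm30648, at 0.104. For Nr1h2 the nearest was Epb41l3, at 0.0426, then Nr1h3 and Mmp9, the last at 0.101. These 3 other genes were expressed at far lower levels than the LXR genes, and limma called none of them. Their adjusted limma P values were 0.104 for Epb41l3, 0.213 for Gm30648 and 0.218 for Mmp9. Epb41l3 stood at 107 and 115 normalized counts in WT livers, compared with 34.2 and 37.5 in LXRDKO livers, and Mmp9 stood at 20.5 and 20.4 in WT livers, compared with 4.75 and 6.43 in LXRDKO livers. In all, 34 genes lay within 0.3 of Nr1h3 and 37 within 0.3 of Nr1h2, out of 15577 each.

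The 250 bases before each RefSeq transcription start of the 10 genes on GRCm38.p6 were searched on both strands for AGGTCA, the half-site that RXR heterodimers bind, and for TCAAGG, the core of the site bound by the orphan receptor LRH-1. The letters can share bases where both match, which happened at 0 of these starts. Nr1h3, with 2 starts, and Nr1h2 hold neither motif. Promoters of 3 genes are printed, 5′ to 3′ on the strand of the gene and with matches in capitals, namely that of a deleted receptor gene and those of the sensor and repressor pair FXR and SHP, whose counts are set side by side further on.

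Nr1h2 (chr7:44553966-44554215, - strand): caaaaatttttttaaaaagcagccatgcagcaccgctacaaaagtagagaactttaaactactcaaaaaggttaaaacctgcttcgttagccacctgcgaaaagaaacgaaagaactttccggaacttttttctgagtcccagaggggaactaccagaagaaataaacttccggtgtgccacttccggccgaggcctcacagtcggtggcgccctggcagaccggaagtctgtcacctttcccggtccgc

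Nr1h4 (chr10:89506659-89506908, - strand): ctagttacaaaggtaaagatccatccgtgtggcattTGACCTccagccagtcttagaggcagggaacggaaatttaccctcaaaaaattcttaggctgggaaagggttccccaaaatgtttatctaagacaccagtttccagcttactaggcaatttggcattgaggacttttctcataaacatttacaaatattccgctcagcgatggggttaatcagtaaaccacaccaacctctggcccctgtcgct

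Nr0b2 (chr4:133553126-133553375, + strand): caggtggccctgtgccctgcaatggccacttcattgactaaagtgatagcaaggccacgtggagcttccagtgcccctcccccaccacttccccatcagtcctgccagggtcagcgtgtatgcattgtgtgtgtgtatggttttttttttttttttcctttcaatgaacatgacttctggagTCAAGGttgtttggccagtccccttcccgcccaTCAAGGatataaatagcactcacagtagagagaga

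The Nr1h2 window has no capitals, that of Nr1h4 holds 1 AGGTCA, which reads TGACCT on the strand shown, and that of Nr0b2 holds 2 copies of TCAAGG. Of 32851 promoters of the same length, 14% hold AGGTCA and 12.5% hold TCAAGG. Paired half-sites are rarer still, with the LXR arrangement (DR4, a direct repeat of AGGTCA with 4 bases between) in 0.0152%, the PPARα arrangement (DR1, a direct repeat with 1 base between) in 0.0335% and the FXR arrangement (IR1, an inverted repeat with 1 base between) in 0.00609%. None of the 10 genes had an exact DR4, DR1 or IR1 in this window, which says only that these letters are not there.

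RXR is the shared partner, and its 3 genes were examined next. Rxra (chr2:27676440-27762957, plus strand), the main RXR gene of hepatocytes, stood at 42904 and 36652 normalized counts in WT livers, compared with 37289.7 and 33634 in LXRDKO livers. The values of the genotypes overlapped. The difference on the log2 scale was -0.16 (standard error 0.131, 95% interval -0.49 to 0.16, adjusted P = 0.667 in limma). On a linear scale the interval runs from 0.713 to 1.12 of the WT level. Rxrb (chr17:34031812-34038399, plus strand), which is expressed in most tissues, stood at 2389.6 and 2457 normalized counts in WT livers, compared with 2570.4 and 2409 in LXRDKO livers. These values also overlapped, and the log2 fold change was 0.04 (95% interval -0.19 to 0.26, adjusted P = 0.909 in limma).

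Rxrg (chr1:167598384-167639623, plus strand), known best from muscle and brain, was the lowest of the 10 genes. It stood at 307 and 424 normalized counts in WT livers, compared with 249.6 and 249.8 in LXRDKO livers, from 233 to 500 reads. LXRDKO livers were both lower than either WT liver, and the WT livers differed 1.38-fold from each other. In log2 terms the difference was -0.53 (standard error 0.203, 95% interval -1.03 to -0.03). The adjusted P values of limma and DESeq2 were 0.357 and 0.348. Leaving out WT replicate 1 made the difference larger, at -0.76, and leaving out WT replicate 2, the liver with the highest value, made it smaller, at -0.30.

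To compare levels between genes, normalized counts were divided by the length of the merged exons of each gene in GENCODE M21. On this scale the summed RXR genes had 8590 and 7510 normalized counts per kb in WT livers and 7580 and 6870 in LXRDKO livers. Rxra made up 90.4% ± 1.51 of this level in WT and 89.8% ± 0.31 in LXRDKO (SD, n = 2 each). The summed LXR genes had 3190 and 3040 normalized counts per kb in WT and 957 and 1030 in LXRDKO. Per kb, Nr1h3 was 2.43 ± 0.213 times as high as Nr1h2 in WT and 2.45 ± 0.0291 times in LXRDKO (SD, n = 2 each), a ratio that overlapped between the genotypes. The summed RXR level was 2.58 ± 0.158 times the summed LXR level in WT livers and 7.32 ± 0.863 times in LXRDKO livers (SD, n = 2 each). With the length of the principal transcript in place of merged exons these ratios were 2.11 and 6. The divisor is the 2 deleted genes, so the genotype set the direction of this change. In LXRDKO livers their remaining reads were divided by the full length, though the exons that gave them are unknown.

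**Figure D2:**
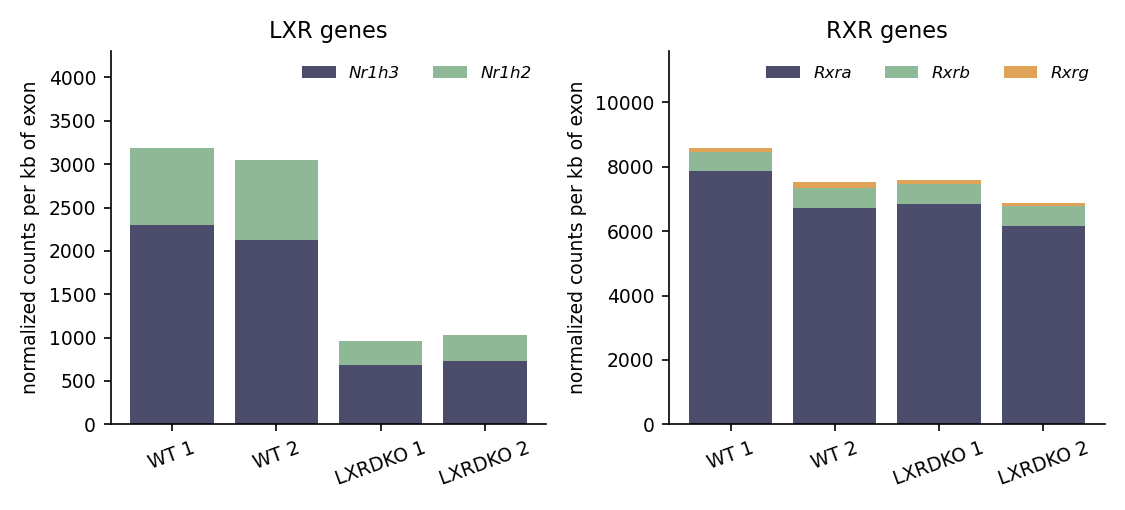
Stacked normalized counts per kb of merged exon of the 2 LXR genes (left) and the 3 RXR genes (right), 1 bar for each liver, with separate scales. The LXR bars stand near 3190 and 3040 in WT and near 957 and 1030 in LXRDKO, while the RXR bars run from 6870 to 8590, with Rxra as the largest share of each.

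Across the 10 genes, the order per kb of merged exon in WT livers ran from Rxra at 7280 ± 809 through Nr1i3, Nr1h4, Ppara, Nr1i2, Nr1h3, Nr1h2, Nr0b2 and Rxrb to Rxrg at 159 ± 36.2 (SD, n = 2 each). Neighbours in this order whose WT livers overlapped were Rxra and Nr1i3, Nr1i3 and Nr1h4, and Nr1h2 and Nr0b2. In LXRDKO livers Rxra, Nr1i3 and Nr1h4 kept ranks 1 to 3. Nr1i2 stood at rank 4 and Ppara at 5, the reverse of WT, and their LXRDKO livers overlapped. Rxrb stood at rank 7 in place of 9, and Nr1h2 at 9 in place of 7, where its LXRDKO livers overlapped those of Nr0b2. Positions depend on the gene model. By the length of the principal transcript, Rxra and Nr1i3, Nr1h3 and Nr1i2, and Nr0b2 and Rxrb changed places in WT. By that length Rxrb went from rank 8 in WT to 6 in LXRDKO, Nr1h2 from 7 to 8 and Nr1h3 from 5 to 7. Nr1i2 went from 6 to 4 and Ppara from 4 to 5. Nr1i3 had 6210 ± 1920 normalized counts per kb of merged exon in WT, and 19400 ± 5980 per kb of its principal transcript, where it ranked 1.

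Nr1h4 (chr10:89454234-89533585, minus strand) encodes FXR, the bile acid receptor. It stood at 12294 and 11718 normalized counts in WT livers, compared with 11986 and 12555 in LXRDKO livers. The values overlapped and no liver stood apart. This made a log2 fold change of 0.03 (standard error 0.0902, 95% interval -0.19 to 0.26, adjusted P = 0.927 in limma), which on a linear scale runs from 0.875 to 1.19 of the WT level.

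Nr0b2 (chr4:133553376-133556536, plus strand) encodes SHP, a receptor without a DNA-binding domain that FXR induces and that represses bile acid synthesis. It stood at 1055 and 700.3 normalized counts in WT livers, compared with 285 and 402 in LXRDKO livers. LXRDKO livers were both lower than either WT liver and kept 32.4% and 45.8% of the WT mean, while livers of the same genotype differed 1.51-fold in WT and 1.41-fold in LXRDKO. The fitted log2 fold change was -1.34 (standard error 0.26, 95% interval -1.99 to -0.70). This was the difference of largest size among the 8 genes that were not deleted. Limma gave an adjusted P value of 0.134 (unadjusted 0.00248) and DESeq2 one of 8.49e-05. Without WT replicate 2 limma gave an adjusted P value of 0.0388 at a log2 fold change of -1.64, and without WT replicate 1 the log2 fold change was -1.05. Relative to Nr1h4 in the same liver, Nr0b2 stood at 8.58% and 5.98% of the normalized counts in WT livers and 2.38% and 3.2% in LXRDKO, again without overlap.

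The promoter of Nr0b2 shown above holds TCAAGG but no AGGTCA. Nr5a2, which encodes LRH-1, stood at 4583 and 4022 normalized counts in WT livers, compared with 4165 and 3704 in LXRDKO livers, with overlap (log2 fold change -0.13, adjusted P = 0.694 in limma). Elsewhere among the 10 genes, TCAAGG matched at 1 start each of Rxrb and Rxrg, and AGGTCA at 1 start each of Rxra and Rxrg.

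Nr1i2 (chr16:38248323-38294824, minus strand) encodes PXR. It stood at 6788 and 7278 normalized counts in WT livers, compared with 6123 and 8039.8 in LXRDKO livers, so the LXRDKO livers lay on either side of the WT livers. Here the log2 fold change was -0.003 (standard error 0.146, 95% interval -0.37 to 0.36, adjusted P = 0.997 in limma). Its sign turned under 5 of 15 alternatives.

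Nr1i3 (chr1:171213970-171220701, plus strand) encodes CAR. Normalized counts of 33393 and 21433 in WT livers compared with 28626 and 26900.1 in LXRDKO livers, and both LXRDKO livers lay between the WT livers. Limma estimated the log2 fold change as 0.05 (standard error 0.215, 95% interval -0.48 to 0.59, adjusted P = 0.95 in limma), or -0.27 without WT replicate 2. On a linear scale the interval runs from 0.716 to 1.5 of the WT level, and of the 10 genes Nr0b2 alone had a wider one on the log2 scale. Nr1i3 shares 3304 bp, 74.9% of its merged exons, with Tomm40l on the opposite strand. Tomm40l had 1211 to 1439 normalized counts per liver, and the strand setting of the read counting is not given in the sources used here, so reads from the overlap are uncertain.

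Ppara (chr15:85734983-85802819, plus strand) encodes PPARα. It stood at 15122 and 12695 normalized counts in WT livers, compared with 8264 and 10337 in LXRDKO livers. The LXRDKO livers were both below the WT livers, at 59.4% and 74.3% of the WT mean. Its fitted log2 fold change was -0.58 (standard error 0.149, 95% interval -0.95 to -0.22). The adjusted P value in limma was 0.214 (unadjusted 0.00866) and in DESeq2 0.0282. It stayed between -0.75 and -0.42 in all 15 alternatives. The 250 bases before its RefSeq start hold neither motif.

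The remaining nuclear receptor genes give the setting for these values. Of 38 listed, 33 were in the table and 30 were tested, 21 of them lower and 9 higher in LXRDKO livers, with a median log2 fold change of -0.19. Limma called 1, against 0.321% of all genes tested, namely Nr3c2, the mineralocorticoid receptor gene. It fell from 1661 and 1760.4 normalized counts in WT to 784 and 780.4 in LXRDKO, or -1.13 on the log2 scale (standard error 0.101, adjusted P = 0.0302 in limma). The call was lost without either LXRDKO liver, and without WT replicate 1 limma called 2 of these receptors. DESeq2 called 3, against 3.59% of the genes it gave an adjusted P value, with Nr3c2 and Nr2f2 down and Hnf4a up.

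Hnf4a, a master regulator of hepatocyte genes, had the highest counts of these receptors. It stood at 44148 and 38999 normalized counts in WT livers, compared with 70769 and 56007 in LXRDKO livers (log2 fold change 0.60). The adjusted P values of limma and DESeq2 were 0.224 and 0.0115. Nr2f2, picked for its DESeq2 call, encodes COUP-TFII and stood at 3664 and 4109 normalized counts in WT livers, compared with 2709.9 and 2675 in LXRDKO livers. Its log2 fold change was -0.53. Limma gave an adjusted P value of 0.129 and DESeq2 one of 0.00991. The glucocorticoid receptor gene Nr3c1 and the orphan receptor gene Nr2f6 stood at -0.18 and -0.21 on the log2 scale (adjusted P = 0.591 and 0.487 in limma). Among the other RXR partners, 9 of 10 were tested and neither tool called any. They had 0 unadjusted limma P values under 0.05, against 2068 among all 15578 genes tested. They included the thyroid hormone receptor genes Thra and Thrb, named after their values were seen, with log2 fold changes of -0.01 and -0.24. The vitamin D receptor gene Vdr was too low to test, with 0 to 3.22 normalized counts per liver.

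**Figure D3:**
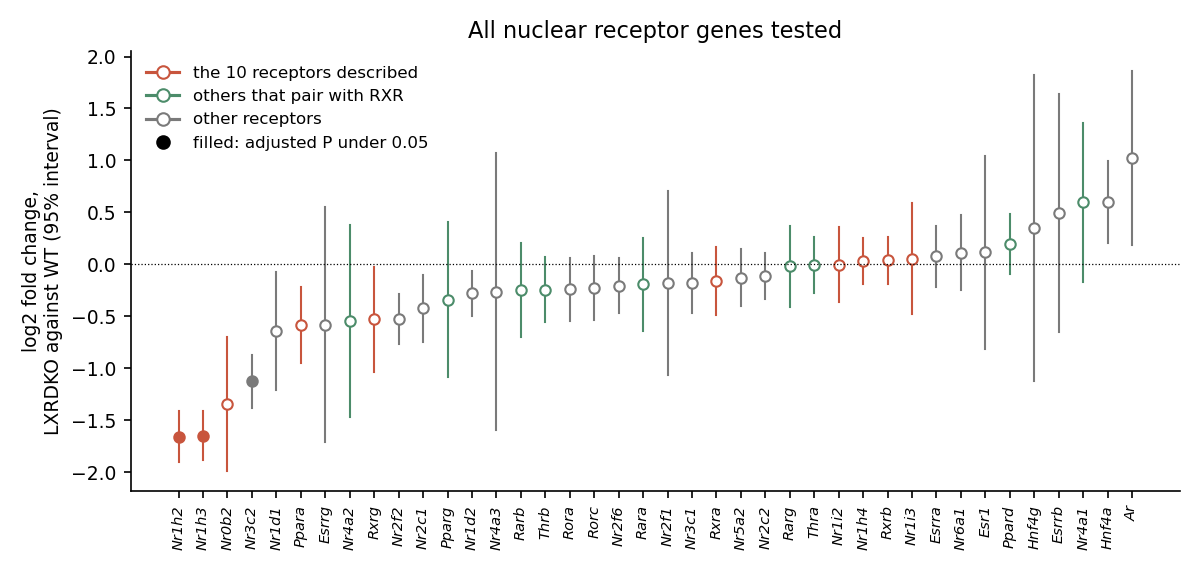
Log2 fold change of every nuclear receptor gene tested, LXRDKO against WT, in order of size, with the 95% interval from limma as a vertical line and filled symbols for an adjusted P value under 0.05. Nr1h2 and Nr1h3 stand lowest at -1.66 and -1.65, followed by Nr0b2 at -1.34 and the filled symbol of Nr3c2 at -1.13, and most other intervals cross 0.

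Genes known to respond to each receptor were then counted from lists, which share Cyp7a1 between the LXR list and the FXR and SHP list. Of 20 LXR targets, 15 were lower and 5 higher in LXRDKO livers, with a median log2 fold change of -0.63. Limma called 1, against 0.321% of all genes tested, namely Srebf1, the lipogenic transcription factor gene. It fell from 22206 and 24071 normalized counts in WT to 3118 and 5287 in LXRDKO (log2 fold change -2.51, adjusted P = 0.0407 in limma). DESeq2 called 8, against 3.59% of the genes it gave an adjusted P value, with 7 down and 1 up, Cyp7a1. The 2 LXRDKO livers were both lower than the WT livers for 11 of the 20 targets, against 23% of all genes tested. The genes with the highest counts differed from each other in the size of the difference. Apoe, the apolipoprotein gene, had a log2 fold change of -0.04 (adjusted P = 0.98 in limma), and Mlxipl, which encodes ChREBP, also had -0.04 (adjusted P = 0.938 in limma). Scd1, a fatty acid desaturase gene, had -4.15 (adjusted P = 0.0615 in limma and 1.72e-05 in DESeq2). Limma called 10 of these targets without WT replicate 1, 4 without WT replicate 2 and 0 without LXRDKO replicate 1.

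Targets of FXR and SHP were divided in direction. Of 18 listed, 17 were tested, 8 were lower and 9 higher, and the median log2 fold change was 0.08. The list holds genes that FXR induces and genes that SHP represses, so its median does not measure a response in 1 direction. Limma called 0, against 0.321% of all genes tested. It gave 6 unadjusted P values under 0.05, against 2068 among all 15578 genes tested. DESeq2 called 2, Cyp7a1 up and Osgin1 down, against 3.59% of the genes it gave an adjusted P value. Cyp7a1, the rate-limiting enzyme of bile acid synthesis and a gene that SHP represses, stood at 17587 and 16798 normalized counts in WT livers, compared with 24854 and 29037 in LXRDKO livers. LXRDKO livers were both higher than either WT liver, with a log2 fold change of 0.64. The adjusted P value in limma was 0.127 and in DESeq2 0.000494. Cyp8b1, the sterol 12α-hydroxylase gene, stood at 29444 and 16318 in WT livers, compared with 35583 and 43226 in LXRDKO livers (log2 fold change 0.84, adjusted P = 0.309 in limma and 0.0581 in DESeq2). Abcb11, the bile salt export pump gene and a target that FXR induces, had a log2 fold change of -0.60 (adjusted P = 0.301 in limma and 0.089 in DESeq2). Osgin1, Cyp7a1, Cyp8b1 and Abcb11 were picked once their values had been seen and do not speak for the whole list. The 2 LXRDKO livers were both higher for 6 of the 17 genes, against 21.7% of all genes tested. Both were lower for 4, against 23%. Abcb4, Fetub and Slc10a1, picked in the same way, also showed no overlap, at 0.15, 0.32 and -0.28 on the log2 scale, and neither tool called them. The 3 with the highest counts, Hpd, Slc27a5 and Apoc3, had log2 fold changes of 0.23, -0.19 and -0.03, and neither tool called them. Without WT replicate 1 limma called 2 genes of this list.

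Targets of PXR and CAR were higher more often than lower. Of 21 listed, 20 were tested, 14 were higher and 6 lower, and the median log2 fold change was 0.26. Of all genes tested, 50.9% were lower. The 2 LXRDKO livers were both higher for 5 of the 20 targets, near the 21.7% of all genes tested. Both were lower for 2, against 23%. Limma called 1, against 0.321% of all genes tested, namely Cyp2b10, the cytochrome P450 gene used as a readout of CAR. It rose from 348 and 499 normalized counts in WT to 1825 and 2099 in LXRDKO (log2 fold change 2.23, standard error 0.196, adjusted P = 0.028 in limma). DESeq2 called 2, both up, against 3.59% of the genes it gave an adjusted P value, with Slco1a4 as the other. Slco1a4, an organic anion transporter gene singled out after its values were seen, stood at 1681 and 2988 in WT livers, compared with 6500.03 and 7527 in LXRDKO livers (log2 fold change 1.64, adjusted P = 0.108 in limma and 9.72e-08 in DESeq2). Cyp3a11, the cytochrome P450 gene most used as a readout of PXR, stood at 194160 and 296900 in WT livers, compared with 357594 and 266212 in LXRDKO livers, with overlap (log2 fold change 0.36, adjusted P = 0.669 in limma). Cyp2c29 had a log2 fold change of 0.07, and Por, the electron donor of the cytochromes P450, had 0.58 (adjusted P = 0.304 in limma). The call of Cyp2b10 was lost without either LXRDKO liver, and limma called 3 of these targets without either WT liver.

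Targets of PPARα were lower nearly throughout. Of 28 tested, 27 were lower and 1 higher, and the median log2 fold change was -0.37. Limma called 0, against 0.321% of all genes tested. It gave 11 unadjusted P values under 0.05, against 2068 among all 15578 genes tested. DESeq2 called 6, all down, against 3.59% of the genes it gave an adjusted P value. Among these were Acaa1b, Vnn1, Fabp1, Cd36 and Aldh3a2, all but Fabp1 named for that call. Of all genes tested, 50.9% were lower. The 2 LXRDKO livers were both lower for 13 of the 28 targets, against 23% of all genes tested, and both higher for 0, against 21.7%. Fabp1, the liver fatty acid-binding protein gene, stood at 211049 and 246753 normalized counts in WT livers, compared with 112144 and 92912 in LXRDKO livers (log2 fold change -1.16, adjusted P = 0.105 in limma and 2.32e-10 in DESeq2). Fgf21, a hormone gene induced by fasting and picked once its values had been seen, stood at 67.3 and 698 normalized counts in WT livers, compared with 40.8 and 242 in LXRDKO livers, so the livers of each genotype lay far apart. Limma called 4 of these targets without WT replicate 1.

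**Figure D4:**
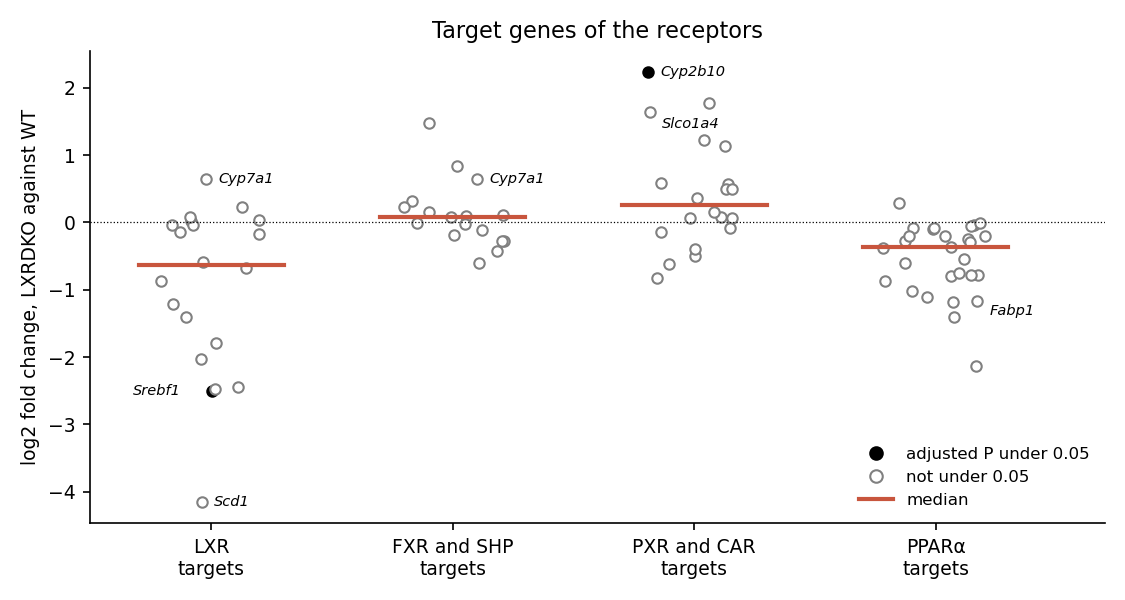
Log2 fold change of each tested gene on the 4 target lists, LXRDKO against WT, with the median of the list as a bar and filled symbols for an adjusted limma P value under 0.05. The medians are -0.63 for LXR, 0.08 for FXR and SHP, 0.26 for PXR and CAR, and -0.37 for PPARα, and Srebf1 and Cyp2b10 are the filled symbols. The FXR and SHP list mixes induced and repressed genes.

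Markers of the cell types in the samples did not all lie on one side of WT. Over all genes tested, limma called 0.321% and gave 2068 of 15578 an unadjusted P value under 0.05. DESeq2 called 3.59% of the genes it gave an adjusted P value. Of 8 hepatocyte markers limma called 0 and 1 had an unadjusted P value under 0.05, with summed levels of 6969370 to 7833940 normalized counts in WT livers and 6762180 to 7350740 in LXRDKO. DESeq2 called 1 of them. Of 8 endothelial markers 7 were lower and limma called Kdr down, with sums of 12172 to 13530.0 in WT and 7729 to 10279 in LXRDKO. Of these endothelial markers, 5 had an unadjusted P value under 0.05 and DESeq2 called 1, down. All 8 stellate cell markers and all 6 cholangiocyte markers were higher, with 0 called by limma, 5 and 3 unadjusted P values under 0.05, and 2 and 1 called up by DESeq2. Their sums were 12254 to 12811 in WT and 17309 to 19099 in LXRDKO for stellate cells, and 2084 to 3599 in WT and 4572 to 5426 in LXRDKO for cholangiocytes. Their part in the values of the receptor genes was not tested.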

How the data were processed

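RNA-Seq libraries from the livers of 2 WT and 2 LXRDKO mice were used. The authors captured polyadenylated RNA with a KAPA Stranded kit, sequenced 50-base single-end reads, and aligned them to mm10 with STAR 2.6.0c. The read counter, its strand setting and the annotation release are not given in the sources used here. The deposited signal is a table of normalized counts, which the authors obtained by dividing reads per gene by DESeq2 size factors, with 4 columns matched to mice by sample title. All values (100%) were whole multiples of 1 read per library within 0.1 read, so reads were recovered. Their size factors ran from 0.877 to 1.18. The median absolute log2 difference between livers of a genotype was 0.184 for WT and 0.174 for LXRDKO.

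Genotypes were compared by limma 3.58.1 (R 4.3.3) on log2(normalized count + 1), for genes whose mean reached 10 normalized counts. Fold changes on this scale understate those of low genes. Over all genes limma called 50. Alternatives were pseudocounts of 0.5 and 8, other filters, scalings and limma settings, a replicate block, each liver left out, and DESeq2 1.42.0 and edgeR 4.0.16 on recovered reads. Scripts were tested on simulated data. Levels per kb by the principal transcript were added after seeing the data. Positions and exon lengths came from GENCODE M21 and promoters from RefSeq.

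The 10 genes and all lists were chosen with earlier results of these data known. The genes named are the 10 receptors, the called members of each list with up to 3 more of the highest mean, and the 3 genes nearest in pattern to each called receptor. Others are said to have been singled out or picked, apart from Nr5a2, Timd4, Adgre1, C1qb, Vdr and Tomm40l, which also lie outside this rule. Values of some genes are not reported here. Chromatin accessibility was not analysed here.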

Additional observations from a re-analysis of the deposited data

How the results depend on the processing

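Limma called 50 genes in all, 25 when only means from 50 upward were kept, 1 without the trend, 90 with the replicate block and 2 to 265 when 1 liver was left out, and DESeq2 called 567. Of the 10 receptor genes limma called 2, 0 without the trend, 2 with the replicate block and 0 to 3 with 1 liver left out, and DESeq2 called 4. Without the trend limma also called 0 other nuclear receptors, 0 LXR targets and 0 PXR and CAR targets. DESeq2 called 3 other nuclear receptors and 8 LXR, 2 FXR and SHP, 2 PXR and CAR and 6 PPARα targets. With the replicate block limma called 4 LXR, 3 PXR and CAR and 2 PPARα targets, and among means from 50 upward it called 0 LXR targets. With 1 liver left out it called 0 to 2 other nuclear receptors, 0 to 10 LXR, 0 to 2 FXR and SHP, 0 to 3 PXR and CAR and 0 to 4 PPARα targets. Replicate numbers do not pair mice, and the deviations of livers with the same number correlated at 0.0031. Nr1h3 and Nr1h2 had an adjusted P value of 0.212 from limma without the trend. Signs turned for 4 receptor genes. With each liver left out, Rxrb ran from -0.00863 to 0.0851, Nr1h4 from -0.00308 to 0.066, Nr1i2 from -0.199 to 0.194 and Nr1i3 from -0.267 to 0.373. The values of opposite sign were, for Nr1i2, 0.052 with library totals, 0.00971 with DESeq2, 0.0183 with edgeR, 0.0478 without WT replicate 2, 0.194 without LXRDKO replicate 1, for Rxrb -0.00863 without LXRDKO replicate 1, for Nr1h4 -0.00308 without WT replicate 2 and -0.00195 without LXRDKO replicate 2, and for Nr1i3 -0.267 without WT replicate 2. The causes were not tested. Scaling to library totals moved the median of all genes by 0.0544 on the log2 scale. With 1 liver left out, the lone liver is assumed to vary like the others. P values rest on 2 mice per genotype.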
